A study of Mus musculus with 30 samples.

Results

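The regions described here are the places where the chromatin remodeller Snf2h was called by ChIP-seq in wild-type CH12 cells and in mutant CH12 cells that lack CTCF zinc fingers 9 to 11. All regions of both Snf2h peak lists on chromosomes 1 to 19 were taken, whatever their values. These were 16793 regions in wild type and 23441 in the mutant, 40234 of the 624917 regions in the 8 peak lists of the series. Another 513 wild-type and 432 mutant regions lay on chromosomes X and Y or on mitochondrial DNA and were left out.

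CH12 is a mouse B lymphoma line. The wild-type cells (wtCH12) carried no vector and received no treatment. The mutant cells (mutCH12) also carried no vector, and Cas9 had been used to delete zinc fingers 9 to 11 from both copies of the CTCF gene. Both were fixed with 1% formaldehyde for 10 min while growing asynchronously, and chromatin sheared to between 200 and 600 bp was precipitated with 5 μg of the same Snf2h antibody. Of the 30 mouse samples of the series no group has a second one, and no other CH12 list was analysed here. The labels do not say whether the mutant line is 1 clone. A peak list holds no expression and no reads, so neither the deletion nor the B-cell identity could be checked from these files. With 1 list a line, no difference below has a replicate check and no test was made. Intervals are 95% intervals over regions, which cover counting error only, and neighbouring regions are not independent.

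Snf2h (SMARCA5) is the ATPase of the ISWI family of remodelling complexes. These complexes use ATP to slide nucleosomes along DNA and to space them evenly, and around bound CTCF they are known to help form the regular nucleosome arrays that flank the site. CTCF binds DNA through a row of zinc fingers. Its central fingers read the core motif, and the last fingers contact DNA upstream of that core at a subset of sites. CTCF is also where the cohesin ring is often held when it extrudes chromatin loops.

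Regions in the mutant list were wider. The narrowest region was 163 bp in wild type against 187 bp in mutant cells, the median was 238 bp (236 to 239) against 278 bp (276 to 279), and the widest 10% began at 403 bp against 479 bp. The median thus differed by 40 bp, and the narrowest region by 24 bp. Regions over 500 bp made up 4.32% (4.01 to 4.64) of the wild-type list and 8.39% (8.04 to 8.75) of the mutant list. Added up, the widths came to 4.51 Mb for the wild-type list and 7.36 Mb for the mutant list. The difference in median width was positive on all 19 chromosomes, from 32 bp on chromosome 13 to 51 bp on chromosome 18.

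The lower end of the width distribution can be set by the caller. MACS2, which the submitters' processing notes name, by default calls no region shorter than the fragment length it assumes, and the settings are not given in the sources used here. Within 10 bp of the narrowest region lay 14.7% of wild-type and 13.1% of mutant regions. Counted as width above the narrowest region of its own list, the median was 75 bp (73 to 76) in wild type and 91 bp (89 to 92) in the mutant, a difference of 16 bp.

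Width also went with the height of the summit, the base of highest fragment density in a region. The number of fragments stacked on the summit, called the pileup here, was computed back from the deposited fold and −log10 p, and came out whole within a tolerance of 0.001 in −log10 p for 100% of the regions of both lists. Dividing the pileup by the lowest background rate of its own list gave a scaled pileup that can be set side by side between libraries of unequal background. Regions with a scaled pileup of 8 to 10 had a median width of 250 bp in wild type (3345 regions) and 264 bp in the mutant (6160 regions). Above the narrowest region these were 87 bp and 77 bp. The same order held in all 6 bins of scaled pileup, from 41 against 30 bp below a value of 6 to 228 against 216 bp at 20 or more. At a matched scaled pileup the mutant regions were therefore wider in bp and narrower once the narrowest region of each list was taken off. The second of these depended on the scaling, by bins chosen after the data were seen. At a matched pileup as recovered the mutant was wider above the narrowest region in all 6 bins, for example 97 against 72 bp from 25 to 30 fragments. At a matched pileup over the background at the summit it was wider in the 4 lower bins and narrower in the 2 upper ones, 115 against 127 bp and 168 against 173 bp. In bp the mutant was wider in every bin of all 3 scalings.

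**Figure D1:**
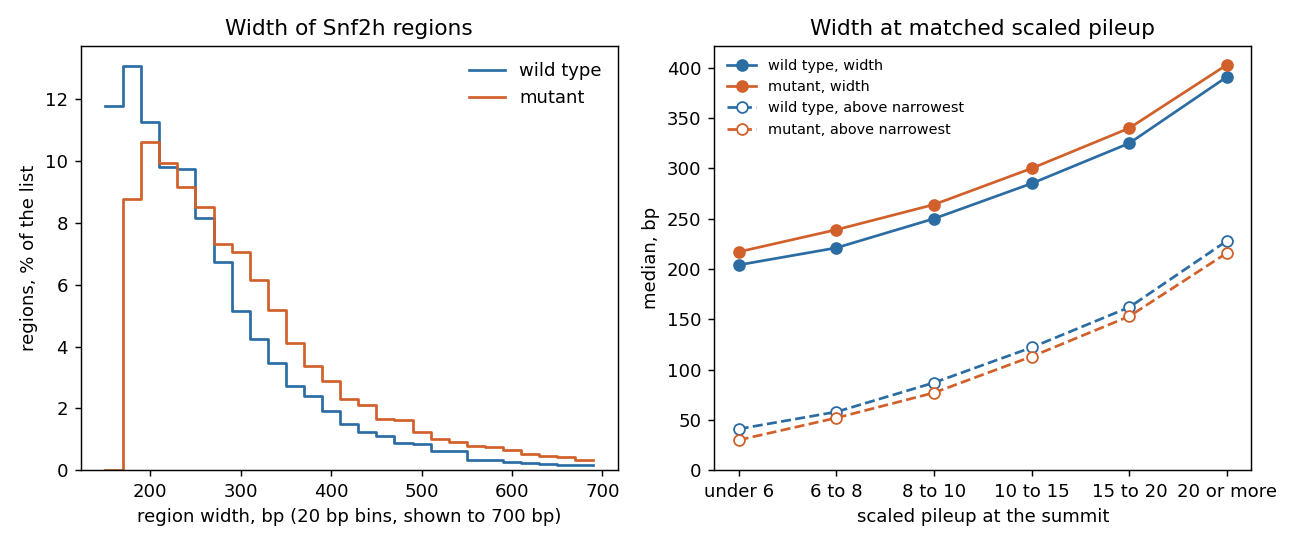
Left, share of each Snf2h list (y axis, %) by region width (x axis, bp, bins of 20 bp) for wild type (blue) and mutant (orange). Right, median width (filled points) and median width above the narrowest region of the same list (open points), in bp, by bin of scaled pileup at the summit; on this scaling the mutant lies above wild type in width in every bin and below it once 163 or 187 bp is taken off.

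Regions of the 2 lines were joined where they shared at least 1 bp. There were 10417 such overlaps, and 9929 of them were 1 to 1 pairs, in which neither region touched another region of the other line. The pairs held 59.1% of the wild-type regions and 42.4% of the mutant regions. Few regions were split or joined. Only 69 wild-type regions (0.411%) overlapped 2 or more mutant regions, and 177 mutant regions (0.755%) overlapped 2 or more wild-type regions. Private regions, which touched none of the other line, numbered 6446 in wild type and 13206 in the mutant.

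Within the pairs the mutant region was the wider one in 7404 of 9929 cases (74.6%, 73.7 to 75.4). The median width was 260 bp in wild type and 325 bp in the mutant, and the median difference within a pair was 55 bp (52 to 56), or 31 bp (28 to 32) above the narrowest regions. The extra width was split evenly between the sides, with a median extension of 27 bp at the left edge and of 27 bp at the right edge. In 43.8% of the pairs the wild-type region lay wholly within the mutant region, in 7.88% the mutant region lay within the wild-type region, and in 48.4% the edges were staggered. Widths within a pair were only loosely related (Spearman's rho 0.43 over 9929 pairs, a description across regions of the same 2 libraries).

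The widest 1% began at 689 bp in wild type and 797 bp in mutant cells, and regions over 1 kb numbered 37 (0.220%) and 71 (0.303%). The 3 widest were the same places in both lists. The widest, chr1:24618422-24622976, was 4555 bp in wild type and 4548 bp in the mutant, with 308 and 309 fragments at the summit. The next, chr17:39979988-39983854, was 3867 bp against 3913 bp, and chr17:13743513-13746034 was 2522 bp against 2550 bp. The backgrounds at the summits of the first and second were 130 and 120 fragments in wild type, far above the list's median of 5.998, and their folds were 2.35 and 2.06 against a median of 3.59. The third had a background of 38.6 and a fold of 6.01. Coordinates are those of the lists, whose chromosome 1 runs to at least 197068193; of the builds the submitters' notes name, mm9 is the mouse one.

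Displacement could be measured only where regions of both lines overlapped, and that choice itself keeps the summits near each other. A region that moved further counts among the private ones, 38.4% of the wild-type and 56.3% of the mutant list. The median absolute displacement between the summits of a pair was 37 bp (36 to 39), with an interquartile range of 15 to 86 bp. Summits lay within 10 bp of each other in 18.6% of pairs, within 50 bp in 59.3% and within 100 bp in 79.1%, while 6.86% were more than 200 bp apart. There was no preferred side. The mutant summit lay to the right in 4920 pairs, to the left in 4918 and at the same base in 91, and the median signed displacement was 0 bp (−1 to 1).

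The number of pairs fell steadily with displacement, in bins of 20 bp, from 3140 pairs below 20 bp to 602 from 80 to 100 bp, 273 from 140 to 160 bp and 169 from 180 to 200 bp. No second maximum appeared up to 260 bp, a range that takes in the length of a nucleosome. The displacement was larger where the regions were weak. In pairs whose weaker member lay in the lowest 20% of its list by −log10 p the median was 80 bp (76 to 85), and in the following steps of 20% it was 62, 44, 30 and, in the strongest pairs, 17 bp (16 to 18). Displacements over 100 bp made up 41.4% of the weakest pairs and 3.56% of the strongest.

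Width had less bearing on it. The median displacement was 36 bp where the wider region of the pair was at most 250 bp, 32 bp from 250 to 350 bp, 41 bp from 350 to 500 bp and 48 bp from 500 to 1000 bp. The 54 pairs with a region over 1 kb had a median of 83.5 bp (46 to 187). The largest displacement, −1144 bp, was inside the second widest region, chr17:39979988-39983854. The next was −874 bp at chr2:51801824-51803466, a wild-type region of 1643 bp with 40 fragments at its summit and 36 in the mutant. The third, 776 bp, joined chr19:24601382-24601835 in wild type to chr19:24601722-24602390 in the mutant, regions that overlapped over only part of their length.

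**Figure D2:**
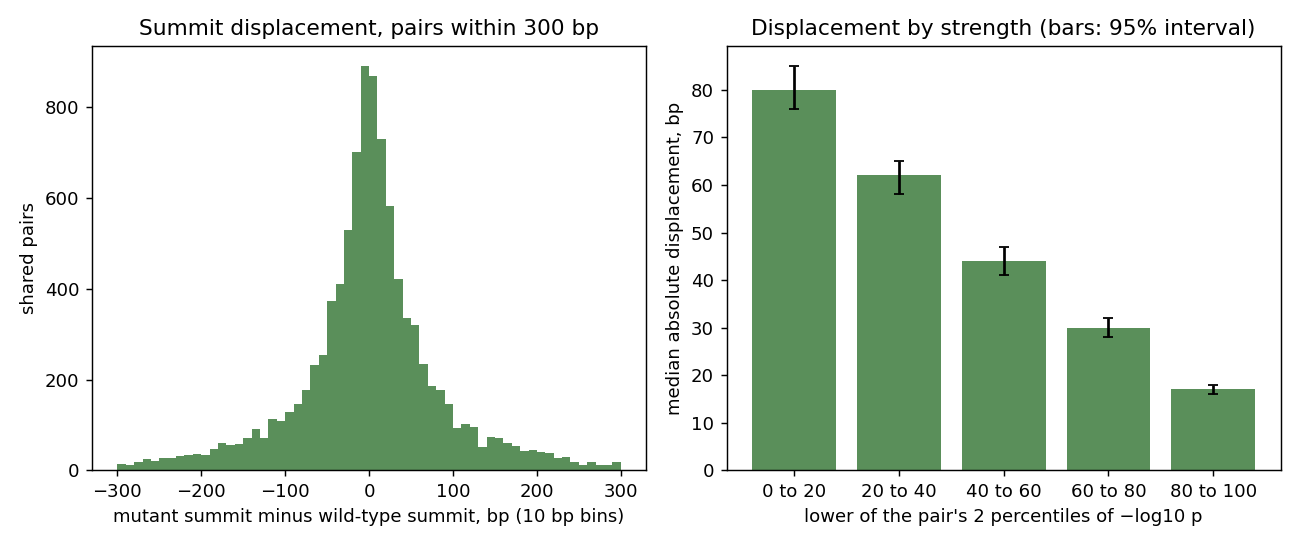
Left, number of 1 to 1 pairs (y axis) by mutant summit minus wild-type summit (x axis, bp, bins of 10 bp, pairs within 300 bp); the histogram is centred on 0 with 4920 pairs to the right and 4918 to the left. Right, median absolute displacement (bp, error bars 95% interval) by the lower of the pair's percentiles of −log10 p, falling from 80 to 17 bp.

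Summits in the mutant carried about as many fragments as in wild type, over a lower background. The lowest background rates were 3.36 fragments (wild type) and 2.58 (mutant). If the narrowest width of each list is taken as its fragment length, which was not checked, these stand for 20.6 and 13.8 fragments per kb, a ratio of 0.670. Over the pairs the median pileup was 27 fragments in wild type (5% to 95% of pairs, 18 to 71.6) and 28 in the mutant (16 to 90). As recovered, the pileup was higher in the mutant in 53.1% of pairs and lower in 41.4%. After scaling, the medians were 8.04 and 10.9, and the mutant was higher in 87.6% of pairs.

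The median log2 ratio of scaled pileup, mutant to wild type, was 0.44 (0.44 to 0.45). Dividing instead by the background at each summit, which was a median of 6.23 fragments in wild type and 5.42 in the mutant, gave 0.26 (0.25 to 0.26). Dividing by these fragments per kb gave 0.64. The direction was the same in all 3 scalings, and the size depended on which was used. Depth, fragment length and the yield of the precipitation cannot be told apart from the line in these lists.

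Past a ratio of 2, 971 of the 9929 pairs were higher in the mutant and 6 were lower, which is 9.78% and 0.0604% of all pairs. These counts depended on the scaling, by settings chosen after the data were seen. Over the background at the summit 231 pairs (2.33%) were at least 2-fold higher and 3 (0.0302%) lower, and as recovered 240 (2.42%) were higher and 47 (0.473%) lower. A pair had to be called in both lists, so a region that fell below the mutant threshold counts as wild-type-only. A region that rose from below the wild-type threshold counts as mutant-only. The lowest mutant scaled pileup in a pair was 4.26, so a wild-type region at the median of 8.04 could not be counted as 2-fold lower. The count of losses was thus limited by the calling. On the scaled pileup, past 1.5 there were 3580 and 52, past 3 there were 104 and 0, and past 4 there were 17 and 0. How the ratio went with height depended on whose height was used. In steps of 20% by the mean log2 scaled pileup of both lines, which holds the compared values themselves, the median log2 ratio was 0.24, 0.38, 0.48, 0.56 and 0.67. By the wild-type scaled pileup alone, a split chosen after the data were seen, it was 0.46, 0.44, 0.38, 0.42 and 0.49, with no steady order. By that of the mutant alone it went from 0.13 to 0.81. The ratio went with the change in width. It was 0.25 in the 2525 pairs where the mutant region was not wider and 0.59 in the 2002 pairs where it was wider by over 100 and up to 200 bp (rho 0.32 over all pairs). Beyond 200 bp it was 0.55.

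The 971 pairs that were at least 2-fold higher had a median pileup of 29 fragments in wild type and 52 in the mutant, with backgrounds of 6.16 and 6.40. In the 8952 pairs that changed less than 2-fold it was 27 in both lines, with backgrounds of 6.24 and 5.35. The 2-fold higher pairs widened by 106 bp against 49 bp, and their summits were displaced by 24 bp against 40 bp. Their share of clustered regions was about that of the other pairs, 48.0% (44.8 to 51.2) against 48.6% (47.5 to 49.6) in the mutant list. Cohesin regions of NIH3T3 overlapped fewer of them, 16.6% (14.3 to 19.1) against 24.4% (23.5 to 25.3).

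Only 3 pairs were past a ratio of 8. At chr8:123858096-123858364 the pileup was 23 fragments in wild type and 164 in the mutant, a scaled ratio of 9.28, and the region went from 269 to 403 bp. At chr4:124013579-124013880 it went from 19 to 126 fragments (ratio 8.63) and from 302 to 400 bp, and at chr10:22572418-22572628 from 22 to 143 fragments (ratio 8.46) and from 211 to 414 bp. The wild-type backgrounds there, 3.42, 3.36 and 3.36, were at or near the lowest of the list, and the mutant backgrounds were 5.80, 5.27 and 5.42. Their mutant regions ranked above the 99th percentile of the list by −log10 p (lowest 99.6), and at most at 79.3 in wild type. Their summits lay 30, 33 and 48 bp apart.

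Within the pairs, losses of scaled pileup were smaller and few. A loss that took the region below the mutant threshold is not among them, but among the 6446 wild-type-only regions. At chr5:5824449-5824752 the pileup was 65 fragments in wild type and 20 in the mutant, a scaled ratio of 0.401, and the width 304 and 215 bp. At chr10:56721247-56721561 it was 51 and 16 fragments (ratio 0.408), with the summit at the same base, and at chr1:169279268-169279624 it was 69 and 22 (ratio 0.415). All 3 mutant regions were narrower than their wild-type partners. Across the 6 pairs that were at least 2-fold lower the median pileup was 58 and 19 fragments, and both regions overlapped cohesin in 4 of them (66.7%, 22.3 to 95.7), an interval that takes in the 23.7% of all pairs.

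The next 3 pairs were taken for a high rank of −log10 p in both lists, so their presence in both is no finding. At chr9:35112719-35113251, first in both lists, 326 fragments were stacked in wild type and 374 in the mutant, with summits 12 bp apart and a scaled ratio of 1.49. At chr10:58393302-58393845 there were 297 and 365 fragments (ratio 1.60, 9 bp apart), and at chr17:46972383-46972804 there were 262 and 346 (ratio 1.72, −8 bp).

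**Figure D3:**
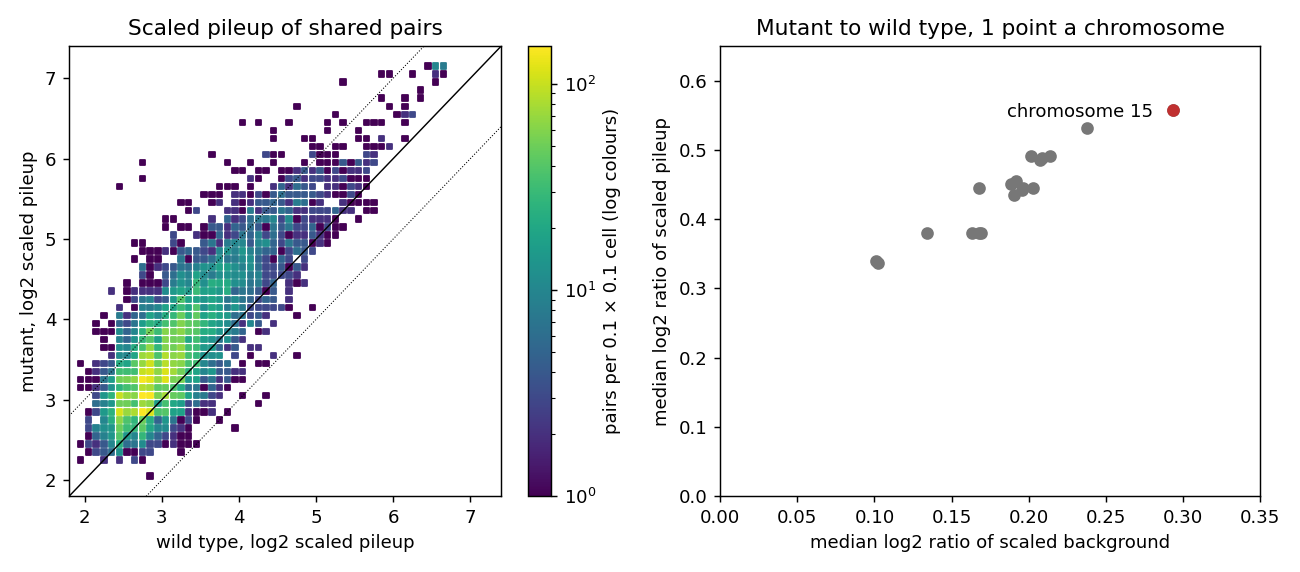
Left, scaled pileup of the 9929 pairs on log2 axes, wild type on x and mutant on y, coloured by the number of pairs per cell on a log scale, with the line of equality (solid) and of 2-fold differences (dotted); most pairs lie above equality, 971 beyond the upper dotted line and 6 beyond the lower. Right, each point is 1 chromosome, with the median log2 ratio of scaled background at the pairs' summits on x and of scaled pileup on y, mutant to wild type; chromosome 15 (red) is highest on both axes.

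Private regions were lower than shared ones in both lists. Their median pileup was 22 fragments in wild type against 27 in shared regions, and 21 against 28 in the mutant. Private regions were also narrow, 207 bp against 260 bp in wild type and 246 bp against 326 bp in the mutant. On the scaled pileup 97.2% of the mutant-only regions reached the 10th percentile of the wild-type list (5.36) and 62.2% its median (7.44). Of the wild-type-only regions 60.3% reached the 10th percentile of the mutant list (6.20) and 9.60% its median (8.92). The order of the lines turned with the scaling. On the pileup as recovered 28.3% (27.5 to 29.1) of the mutant-only regions reached the wild-type median of 25 fragments, and 43.0% (41.8 to 44.2) of the wild-type-only regions reached the mutant median of 23. Over the background at the summit these shares were 56.9% and 18.9%.

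Neighbouring summits were closer together in the mutant. The median distance from a summit to the next on its chromosome was 41.7 kb (40.7 to 42.9) in wild type and 28.0 kb (27.3 to 28.7) in the mutant, a ratio of 0.67. With 1.40 times as many regions over the same chromosomes, more regions leave shorter distances. When the mutant list was cut by −log10 p to the 16793 regions of the wild-type list, the median distance was 38.9 kb (38.0 to 39.97), a ratio of 0.93. The shortest 5% of distances ended at 0.903 kb in wild type, 0.816 kb in the mutant and 1.38 kb in the mutant at equal number.

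Close neighbours were found in both lines. The smallest gap between the edges of neighbouring regions was 76 bp in both lists. Whether the caller set this gap, as it can set the lowest width, was not tested. Summits less than 1 kb apart made up 5.40% (5.06 to 5.75) of the distances in wild type and 6.23% (5.92 to 6.55) in the mutant, but 3.78% (3.50 to 4.08) in the mutant at equal number, a list that is both shorter and without its weakest regions. Summits less than 500 bp apart numbered 35 below 300 bp and 345 above it in wild type, and 34 and 451 in the mutant. At equal number the mutant had 6 and 182. At the other end, distances over 1 Mb were 2.81% in wild type, 1.90% in the mutant and 2.79% at equal number, and the longest empty stretches were 7.84 Mb (wild type) and 7.74 Mb (mutant).

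More of the mutant regions were clustered, that is, within 12500 bp of a neighbour, edge to edge. The wild-type list held 2577 clusters with 37.9% (37.2 to 38.6) of its regions, and the mutant list 4443 clusters with 48.2% (47.6 to 48.9). The difference of 10.3 percentage points shrank to 0.37 points (−0.67 to 1.41) at equal number, where the mutant had 2618 clusters with 38.3% of regions. It was 2.06 points (0.24 to 3.84) among regions of both lines whose −log10 q was 10 or more. Clusters were mostly pairs of regions, 74.1% in wild type and 67.9% in the mutant. With a gap of 3 kb the shares were 16.7% and 20.9%, and 14.9% in the mutant at equal number. With a gap of 50 kb they were 75.8% and 84.4%, and 76.9% at equal number.

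**Figure D4:**
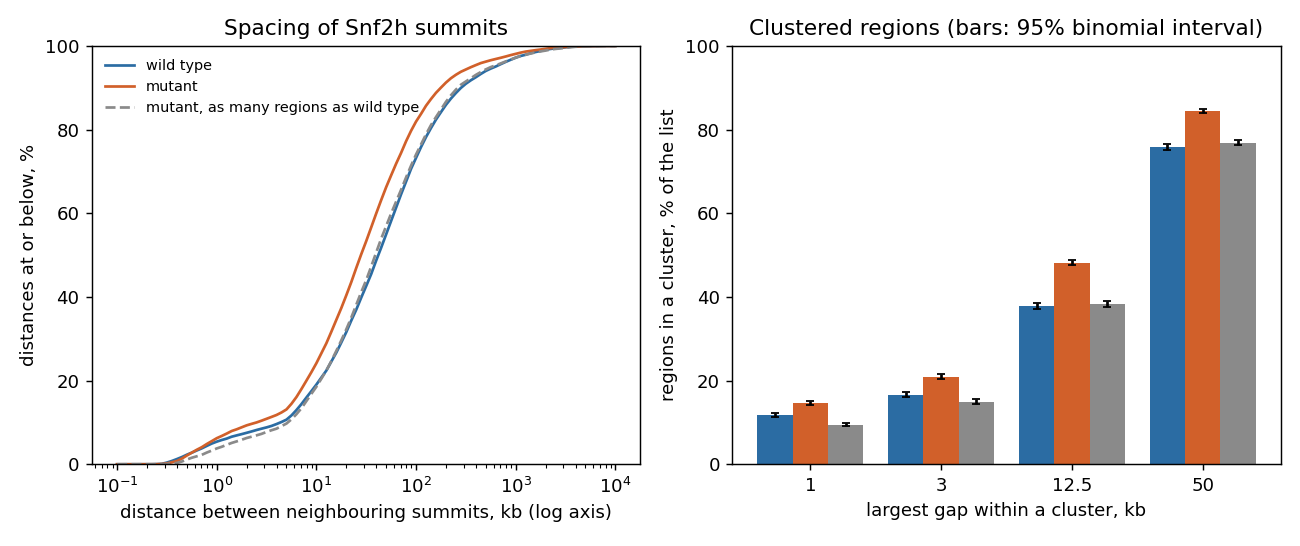
Left, cumulative share of distances between neighbouring summits (y axis, %) against distance (x axis, kb, log scale) for wild type (blue), mutant (orange) and the mutant cut to the 16793 regions highest in −log10 p (grey). Right, share of regions in a cluster (y axis, %, error bars 95% binomial interval) by the largest gap allowed; the grey bars lie below wild type at 1 and 3 kb and within 2 percentage points of it at the 2 wider gaps.

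The clusters of both lines overlapped in part. Of the wild-type clusters 299 of 2577 (11.6%) held no mutant region, and 1252 (48.6%) held 2 or more. Of the mutant clusters 1243 of 4443 (28.0%) held no wild-type region, and 1363 (30.7%) held 2 or more. Private regions of the mutant were clustered almost as often as its shared regions, 47.3% (46.5 to 48.2) against 49.3% (48.4 to 50.3). In wild type these shares were 34.0% (32.8 to 35.1) and 40.3% (39.4 to 41.3).

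Some private regions lay near a region of the other line without touching it. The nearest wild-type region was within 10 kb of 31.2% (30.4 to 32.0) of the mutant-only regions. The nearest mutant region was within 10 kb of 41.4% (40.2 to 42.6) of the wild-type-only regions. At equal number these were 31.0% (30.0 to 32.0) and 31.5% (30.5 to 32.5). Within 1 kb they were 9.84% and 15.3%, or 8.66% (8.06 to 9.30) and 10.1% (9.41 to 10.8) at equal number. Both lists were also cut to a −log10 q of at least 10 before pairing, which left 2788 wild-type regions. Of the mutant-only regions 8.05% then lay within 10 kb of one of these. Mutant-only in that setting can include regions that touch a weaker wild-type region.

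At the gap of 12500 bp the largest clusters were fuller in wild type. The wild-type list had 5 clusters of 20 or more regions, up to 35, and the mutant list had 0, its largest holding 18. With a gap of 50 kb the count turned, with 19 such clusters in wild type, 70 in the mutant and 27 in the mutant at equal number, while the largest cluster was still that of wild type, with 82 regions against 75 and 61. At 12500 bp, clusters of 10 or more numbered 14 in each list, with 251 wild-type and 187 mutant regions. The largest wild-type cluster, chr5:14899992-15019842, held 35 wild-type and 20 mutant regions. The next held 34 and 23 (chr1:87440204-87547477) and 31 and 18 (chr5:15112667-15221533). The largest mutant clusters held 18 regions each, against 18 wild-type regions at chr1:85144030-85212065, 17 at chr1:85058665-85117931 and 21 at chr9:3000029-3038292.

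These large clusters lay in stretches of high background. In clusters of 10 or more regions the median background was 23.1 fragments in wild type and 20.5 in the mutant, against 5.56 and 4.56 at regions that stood alone, and the median fold was 2.52 and 2.76 against 3.66 and 4.04. In the cluster on chromosome 9 the background was 236 fragments in wild type and 254 in the mutant, with folds of 1.37 and 1.42. Leaving out regions whose background exceeded 5 times the lowest of their list, a setting chosen after the data were seen, left 16477 wild-type and 22996 mutant regions and a clustered difference of 10.5 points.

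Along the chromosomes most windows held regions of both lines. Of 2481 windows of 1 Mb, 1850 held regions of both, 126 of wild type only, 115 of the mutant only and 390 of neither. The numbers of regions ranked alike (rho 0.93 with the empty windows included, a description), with 1450 windows holding more regions in the mutant, 648 as many and 383 fewer. The windows that lost most were those of the large clusters on chromosome 5, from 48 to 31 regions in the window from 15000001 and from 30 to 14 in the one from 14000001, and one at the start of chromosome 16, from 32 to 20 in the window from 3000001.

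The 3 windows that gained most all lay on chromosome 15. The window from 78000001 went from 36 to 67 regions, the one from 102000001 from 12 to 43 and the one from 100000001 from 14 to 43. Chromosome 15 as a whole held 701 wild-type and 1175 mutant regions. It had the lowest ratio of median distance of all 19 chromosomes, 0.51 (42.0 to 21.4 kb), where the others lay between 0.55 and 0.80. Its clustered share went from 35.5% to 57.4%, a difference of 21.8 points, where the smallest was 5.09 points on chromosome 10. Its median log2 ratio of scaled pileup, 0.56, was also the highest, and the lowest was 0.34 on chromosome 16.

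The background moved with the pileup across chromosomes. At the summits of the pairs on chromosome 15 the median background was 1.96 times the lowest of the list in wild type and 2.49 times in the mutant, a median log2 ratio of 0.29 that was again the highest of the 19, with the lowest, 0.10, on chromosome 3. Over the 19 chromosomes the log2 ratios of background and of pileup ranked alike (rho 0.91, and 0.89 without chromosome 15), a description of points from the same 2 libraries. Divided by the background at the summit, the pileup ratio of chromosome 15 was 0.22, within the range over all chromosomes of 0.21 to 0.30. Whether copy number differs between the lines on chromosome 15 was not tested. Without chromosome 15, a setting chosen after the data were seen, the ratio of median distance was 0.68, the clustered difference 9.73 points and the median log2 ratio of scaled pileup 0.44.

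Snf2h regions were then set against cohesin, mapped in NIH3T3+EV, mouse embryonic fibroblasts that carry an empty vector. Those lists come from another cell type whose labels name no CTCF deletion, so they serve as positions only and say nothing of cohesin in CH12. Of the merged cohesin regions 64891 were called with all 3 antibodies, against SMC1, RAD21 and SMC3. They overlapped 27.1% (26.4 to 27.7) of the wild-type and 25.2% (24.7 to 25.8) of the mutant Snf2h regions. Among the private regions the shares were 32.1% (31.0 to 33.3) in wild type and 25.4% (24.7 to 26.2) in the mutant, and among the shared ones 23.9% and 24.96%.

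In 2350 pairs both regions overlapped such a site. Their summits were displaced more than those of the 7422 pairs away from cohesin, with a median of 47 bp (44 to 50) against 35 bp (33 to 36). They were also lower, with a median pileup of 26 fragments in both lines against 27 and 29. In steps of 20% of the lower percentile of −log10 p, a split chosen after the data were seen, the medians at and away from cohesin were 72 and 83 bp, 69 and 57 bp, 50 and 43 bp, 37 and 28 bp, and 18 and 17 bp, so the order turned in the weakest pairs. The intervals did not overlap from 20 to 40% and from 60 to 80%, and overlapped in the other 3 steps. Their median log2 ratio of scaled pileup was 0.38 against 0.45, and 6.85% (5.86 to 7.95) were at least 2-fold higher in the mutant against 10.6% (9.94 to 11.4). The Snf2h summit lay a median of 81 bp (78 to 85) from the nearest RAD21 summit in wild type and 90 bp (86 to 94) in the mutant. In these 2350 pairs the median width was 264 bp in wild type and 333 bp in the mutant. A wider region can overlap a cohesin site with its summit farther away, and the part of width in the distance was not tested. The mutant summit was farther from RAD21 in 1250 pairs, nearer in 1072 and as far in 28. Within 50 bp lay 30.9% (28.99 to 32.8) of the wild-type and 26.9% (25.1 to 28.7) of the mutant summits. The medians differed by 9 bp (3 to 14), and with a −log10 q of at least 10 by 1 bp (−20 to 23).

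**Figure D5:**
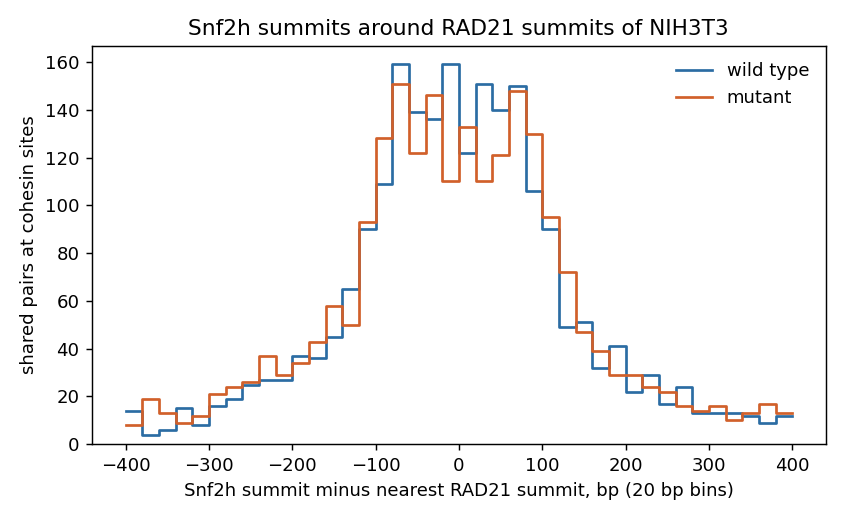
Number of shared Snf2h pairs at cohesin sites of NIH3T3+EV (y axis) by the distance of the Snf2h summit from the nearest RAD21 summit (x axis, bp, bins of 20 bp) in wild type (blue) and mutant (orange). Both lines have a broad maximum between −100 and 100 bp, and single bins differ in both directions.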

How the data were processed

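The authors deposited 1 narrowPeak list for each of the samples used here. Bowtie2 (version 2), Bowtie, SAMtools, MACS2, deepTools 3.5.0 and the builds mm9 and hg19 are named by the submitters' processing notes, without a role; control, thresholds and filters are not given in the sources used here. Region names in both Snf2h lists carry a replicate tag, and whether libraries were pooled is not stated, so each list counted as 1 sample. Per the column layout of the deposited lists, the values are a fold at the summit (a ratio to a local background), −log10 p and −log10 q of the summit, and a summit offset in bp. Whether the background came from a control is not given in the sources used here. The lowest deposited −log10 q was 1.33.

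From these, pileup and background were solved as fold = (pileup + 1)/(background + 1), with the p of a Poisson tail above the pileup, and checked on simulated lists. Regions were paired at 1 bp of overlap and clustered at a gap of 12500 bp. Regions named were the 3 most extreme by width, cluster size, pileup ratio (pileup of at least 30 in either list), displacement, rank of −log10 p, and gain or loss per 1 Mb window. Members, measures and lists were chosen with earlier results of these data known. Medians carry order-statistic intervals and shares exact (Clopper-Pearson) intervals at 95%; differences combine the intervals of both lists. The settings changed in turn were the lowest −log10 q (10), equal numbers, chromosome X added, and settings particular to each measure. Python 3.11.15, numpy 2.4.6, pandas 2.3.3 and scipy 1.17.1 were used. Genes, CTCF motifs and DNA sequence were not analysed here.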

Additional observations from a re-analysis of the deposited data

How the results depend on the processing

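Of 51 alternative values for 7 results, 27 stayed within the interval of the reported value, 23 moved and 1 reversed. Requiring a −log10 q of at least 10, which left 2788 wild-type and 5102 mutant regions, gave a width difference of 33 bp, a distance ratio of 0.50, a clustered difference of 2.06 points, a displacement of 17 bp, a log2 pileup ratio of 0.57, 8.05% of mutant-only regions within 10 kb and a cohesin distance difference of 1 bp. Equal numbers gave 59 bp, 0.93, 0.37 points, 33 bp and 0.51 for the first 5. The width difference was 16 bp above the narrowest region and 55 bp in 1 to 1 pairs. Within bins of scaled pileup, settings chosen after the data were seen, it was 15.3 bp. Above the narrowest region it reversed to −8.69 bp within these bins. By the pileup as recovered, the difference above the narrowest region did not reverse in any of 6 bins. By the pileup over the background at the summit it reversed only in the upper bins, 115 bp (mutant) against 127 bp (wild type) and 168 against 173 bp. Gaps of 3 and 50 kb gave clustered differences of 4.26 and 8.53 points. Displacement was 35 bp with 50% of the shorter region shared and 40 bp over all overlapping pairs. The log2 ratio was 0.26 over the summit background and 0.64 over fragments per kb. Of mutant-only regions 9.84% lay within 1 kb and 88.5% within 100 kb. For the other moves the cause was not tested. No paired analysis was possible because each line had 1 list. A region absent from a list may lie below its threshold, and the part of depth in this was not tested.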
